A study of Mus musculus with 10 samples.

Results

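The 10 genes described here, DNA topoisomerases and their closest helpers, were followed in mouse embryonic stem cells: the enzymes Top1, Top1mt, Top2a, Top2b, Top3a and Top3b, the end-cleaning enzymes Tdp1 and Tdp2, and the partner proteins Rmi1 and Tdrd3. They were taken by name, through their Ensembl gene identifiers in GENCODE vM21, and all 10 were found among the 55487 genes of each expression table. The series maps R-loops in the E14 line by MapR and its strand-specific form BisMapR. RNA-seq of the same line was deposited in 3 replicates, and these are the samples used here; the 7 MapR and BisMapR samples were left aside. The RNA-seq cells were unperturbed E14 cells, kept in 15% serum with LIF, a GSK inhibitor at 3 µM and a MEK1/2 inhibitor at 1 µM. There is 1 cell line and 1 condition, so levels are described between genes and between replicates, and no condition is compared.

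Topoisomerases cut DNA, let it turn or pass through itself, and reseal it, holding the cut end on a tyrosine of the enzyme in between. Type IB enzymes relax the supercoils that form ahead of and behind a moving RNA polymerase, type II enzymes pass one duplex through another and untangle sister chromosomes, and type IA enzymes act on single strands, on RNA as well in the case of TOP3B. Underwound DNA behind a polymerase favours the pairing of new RNA with its template, which is why these enzymes are studied together with R-loops.

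Library totals ran from 5787357 to 11420425 estimated counts, and the 10 genes together held 0.117% to 0.131% of them. A gene is called expressed here where its mean TPM (transcript abundance scaled for transcript length and to a fixed library total) was 1 or more, and all 8 markers of pluripotent cells were expressed. Of 8 fibroblast or feeder cell markers, 1 was, Thy1 at 2.50 TPM, and 4 (Col3a1, Dcn, Lum and Postn) had no count in any replicate; the list's summed level was 1.79 to 4.57 TPM. No gene among 8 differentiated lineage markers was expressed, the highest being Eomes at 0.953 TPM. Nothing in the labels says whether the replicates were separate cultures, so the spread between them may be technical.

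By that rule 9 of the 10 genes were expressed, as were 44.1% of all protein-coding genes and 19.8% of all genes. The median level of all 10 in log2(TPM + 1) was 3.12 ± 0.35 (SD, n = 3). For the 9 expressed ones alone it was 3.44 ± 0.33, and for the 9683 expressed protein-coding genes 2.72 ± 0.29 (SD, n = 3). Within the group the levels spanned from 71.7 TPM for Top2a to 0.723 TPM for Top1mt. With TPM rescaled over genes of at least 100 nt effective length, which leaves out abundant short RNAs, every level was higher by a common factor within a library; Top2a was then at 196 TPM and Top1mt at 1.98 TPM. On that scale all 10 genes had a mean of at least 1 TPM, as did 51.5% of all protein-coding genes, 2 of the 8 fibroblast or feeder cell markers and 3 of the 8 lineage markers.

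**Figure D1:**
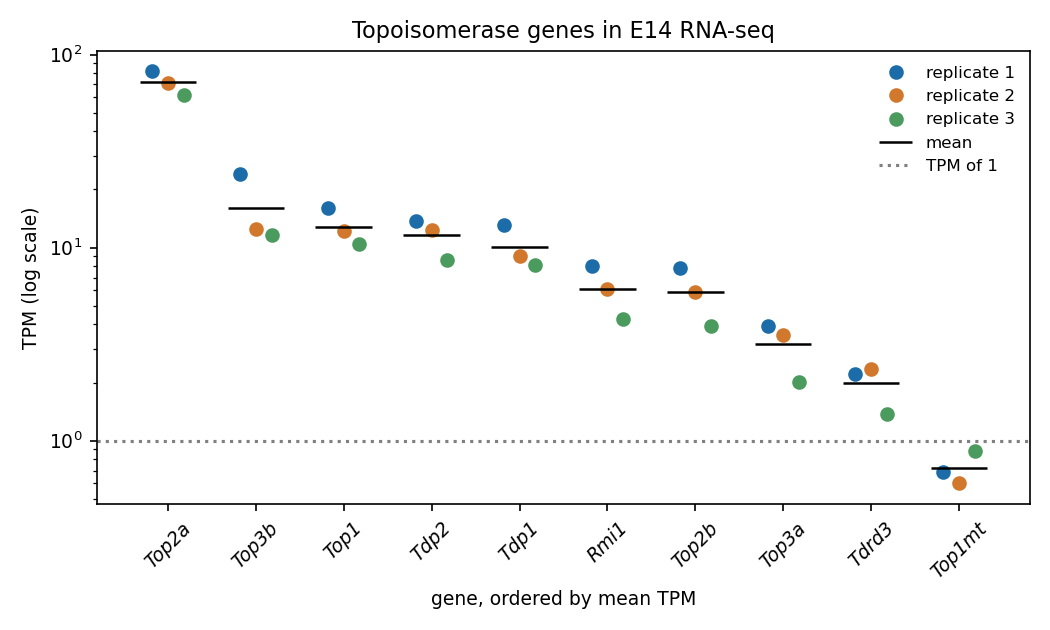
TPM of each gene in each of the 3 replicates (points, log axis), with the mean as a bar and a dotted line at a TPM of 1. Top2a lies above every other gene in each replicate, and Top1mt is the one gene below 1 in all 3.

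Of the type II enzymes Top2a was the higher. Top2a (ENSMUSG00000020914, chromosome 11, 98992943 to 99024189, minus strand), the isoform of dividing cells that separates sister chromosomes, had 81.85, 71.47 and 61.92 TPM in replicates 1, 2 and 3. Its mean of 71.7 ± 9.97 TPM (SD, n = 3) was higher than that of 96.8% of the expressed protein-coding genes. Top2b (ENSMUSG00000017485, chromosome 14, 16365179 to 16435462, plus strand), the isoform that non-dividing cells also keep and that acts at promoters, had 7.84, 5.91 and 3.91 TPM. The replicates of the 2 genes did not overlap, and within a library Top2a exceeded Top2b 10.4, 12.1 and 15.8 times.

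That gap was 3.63 ± 0.30 (SD, n = 3) on the log2 scale, computed from TPM with a pseudocount of 0.1, and it had the same sign in every replicate. An exact sign-flip permutation test over 3 replicates cannot go below a two-sided p of 0.25, which is the p of this pair and of each of the other 5 pairs below. When each gene was given the length of its longest annotated coding transcript, an alternative chosen after seeing the data, the gap was 4.57 ± 0.19 (SD, n = 3). The longest coding transcript of Top2b has 10335 nt, and its average length in the authors' tables was 3885, 4520 and 4368 nt.

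The upstream sequences of the type II pair are shown because the pair differs there in a class of motif that genes of dividing cells often carry. They are RefSeq windows of GRCm38.p6, read 5′ to 3′ on the gene's strand. Capitals mark CCAAT or its reverse complement ATTGG, the box bound by NF-Y. They also mark TTTGAA or its reverse complement TTCAAA, the core of the cell cycle homology region (CHR) of G2 and M phase genes. The Top2a window ends at the base before the start site (chr11:99024190-99024439, minus strand), and the Top2b stretch runs from 150 to 51 bases before it (chr14:16365056-16365155, plus strand).
Top2a: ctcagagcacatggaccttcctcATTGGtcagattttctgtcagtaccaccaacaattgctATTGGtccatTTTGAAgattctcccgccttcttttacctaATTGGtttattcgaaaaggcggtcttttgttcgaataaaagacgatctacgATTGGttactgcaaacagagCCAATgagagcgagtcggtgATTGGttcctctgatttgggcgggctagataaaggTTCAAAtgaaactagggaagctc
Top2b: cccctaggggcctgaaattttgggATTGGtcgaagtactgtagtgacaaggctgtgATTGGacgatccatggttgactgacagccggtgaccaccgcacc

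The 250 bases before the Top2a start held 6 NF-Y boxes, their first bases at -227, -189, -149, -98, -78 and -58 from the start site. Of 32851 RefSeq windows of that length, 19 held 6 or more, a share of 0.0578%. Top2a also held the CHR letters at -179 and at -23; 16.0% of windows held them at least once and 1.81% at least 2 times. The whole 250 bases before the Top2b start held 2 NF-Y boxes, at -126 and -94, and none of the CHR letters; 10.1% of windows held at least 2 NF-Y boxes. Both motifs were searched on both strands, and no match of one overlapped a match of the other. The motifs were chosen after the Top2a window had been seen, and a match is a string of letters that does not show that a factor was bound.

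**Figure D2:**
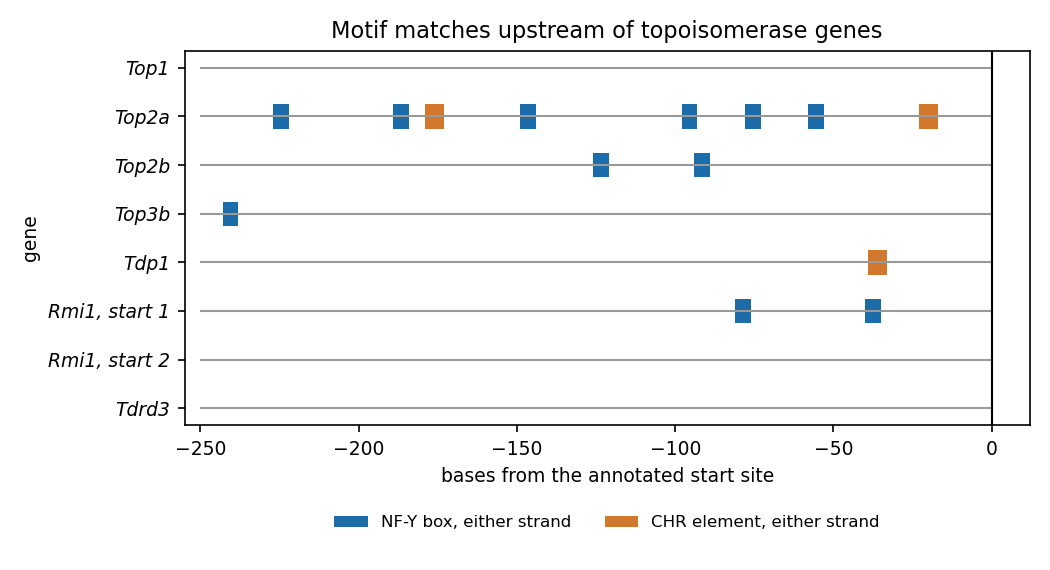
Positions of NF-Y boxes and CHR elements in the 250 bases before the RefSeq start sites of the 7 genes with a window (Rmi1 has 2 starts); the x axis is distance from the start site in bases. Top2a holds 6 NF-Y boxes and 2 CHR elements, and no other window holds more than 2 matches.

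Windows were found for 7 of the 10 genes; Top1mt, Top3a and Tdp2 had none. Rmi1 held 2 NF-Y boxes, at -81 and -40 from the first of its 2 starts, Top3b held 1 at -243, and Tdp1 held 1 CHR match at -39. Top1 and Tdrd3 held neither motif. Among the 12 proliferation genes listed, 9 had a window, and 6 of those (Mki67, Cdk1, Ccnb1, Bub1, Cenpf and Ube2c) held at least 2 NF-Y boxes, a share of 66.7%, against 11.5% of the 27025 genes with a window. Of the 7 condensin genes with a window, 1 did (Ncapd2), a share of 14.3%. At least 1 NF-Y box was less particular to proliferation genes. It was held by 88.9% of them, by 100% of the 5 lineage markers with a window and by 37.5% of all genes with one. The other lists with windows ran from 14.3% for mitochondrial DNA maintenance to 57.1% for end repair, pluripotent and topoisomerase genes. The CHR letters were held at least once by 5 of those 7 condensin genes (71.4%) and 4 of the 9 proliferation genes (44.4%). That share was 18.3% for all genes with a window, 66.7% for the 3 fibroblast or feeder cell markers with a window and 0 for the 6 topoisomerase partners. Ube2c, a ubiquitin-conjugating enzyme of mitotic exit, held 6 NF-Y boxes, the same number as Top2a.

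The 12 proliferation genes give the setting for the level of Top2a. All 12 were expressed. Ccnb1, cyclin B1, and Bub1, a spindle checkpoint kinase, were higher than Top2a in every replicate, and the other 10 were lower in every replicate. The 8 condensin subunits, which shape mitotic chromosomes together with TOP2A, were also all expressed, with means from 10.2 TPM for Ncapg2 to 59.5 TPM for Ncapd2. Of the 8, 7 lay below Top2a in each replicate, while Ncapd2 was above it in replicate 1, at 83.80 TPM. Top2b lay below all 8 condensin subunits in every replicate.

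Top2a was also the main transcript among the 6 enzymes. It made up 60.9%, 67.4% and 68.2% of their summed TPM in replicates 1, 2 and 3, or 65.5% ± 4.0 (SD, n = 3). Top3b followed with 14.1% ± 3.32 (SD, n = 3), and Top1 with 11.6% ± 0.245 (SD, n = 3). Top2b held 5.24% ± 0.817 (SD, n = 3), Top3a 2.82% ± 0.557 (SD, n = 3), and Top1mt 0.683% ± 0.249 (SD, n = 3). The order below Top2a turned with the length scaling: Top1 held 10.8% and Top3b 5.53% in CPM (counts scaled to the library total), and 13.9% and 8.98% when each gene had the length of its longest coding transcript. These are shares of RNA, not of protein.

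The type IB enzymes came next. Top1 (ENSMUSG00000070544, chromosome 2, 160645888 to 160722764, plus strand), the nuclear enzyme that travels with RNA polymerase II, had 15.99, 12.14 and 10.45 TPM, a mean of 12.9 ± 2.84 TPM (SD, n = 3). Top1mt (ENSMUSG00000000934, chromosome 15, 75657035 to 75678800, minus strand), the paralog that works in mitochondria, had 0.69, 0.60 and 0.88 TPM. Its values rest on 33, 20 and 26 counts, with exact Poisson 95% intervals of 22.7 to 46.3, 12.2 to 30.9 and 17.0 to 38.1, which cover counting error only. All 3 counts were above a floor of 3 counts.

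Within a library Top1 exceeded Top1mt 23.2, 20.2 and 11.9 times, a log2 gap of 3.97 ± 0.48 (SD, n = 3). The gap depended on the pseudocount, since Top1mt was low, and was 2.99 ± 0.36 (SD, n = 3) with a pseudocount of 1. Without length scaling, in CPM, it was 5.06 ± 0.41 (SD, n = 3). Of 7 nuclear genes for mitochondrial DNA maintenance, all were expressed and lay above Top1mt in every replicate. They ran from Polg2, the accessory subunit of the mitochondrial DNA polymerase, at 1.37 ± 0.386 TPM (SD, n = 3) to Ssbp1, the mitochondrial single-strand binding protein, at 25.5 ± 3.24 TPM (SD, n = 3). In replicate 3 Polg2 was only just above Top1mt, at 0.94 TPM on 32 counts beside 0.88 TPM on 26 counts.

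Of the type IA enzymes Top3b was the higher. Top3b (ENSMUSG00000022779, chromosome 16, 16870736 to 16892990, plus strand), which acts on DNA and RNA, had 24.10, 12.43 and 11.61 TPM, so replicate 1 stood well above the others. Top3a (ENSMUSG00000002814, chromosome 11, 60740058 to 60777365, minus strand), which dissolves recombination intermediates, had 3.92, 3.53 and 2.02 TPM. The 2 genes did not overlap, and their log2 gap was 2.28 ± 0.43 (SD, n = 3), or 6.15, 3.52 and 5.75 times in replicates 1, 2 and 3.

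The size of that gap depended on the length scaling. Top3b has 20 annotated transcripts of 359 to 3511 nt, and the average length in the tables was 1348, 1753 and 1503 nt, while the longest coding transcript has 3073 nt. Its counts were 791, 379 and 302, which is 69.3, 58.6 and 52.2 CPM. At the fixed length of the longest coding transcript its level was 8.50 ± 2.80 TPM (SD, n = 3) in place of 16.0 ± 6.99 TPM (SD, n = 3). The gap to Top3a was then 1.42 ± 0.14 (SD, n = 3), and 1.15 ± 0.15 (SD, n = 3) in CPM, in the same direction.

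Tdrd3 and Rmi1, partners of the type IA enzymes, lay below Top3b in every replicate. Tdrd3 (ENSMUSG00000022019, chromosome 14, 87416639 to 87545504, plus strand), the Tudor protein that brings TOP3B to chromatin and to mRNA, had 2.21, 2.35 and 1.38 TPM. It lay below Top3b by a log2 ratio of -2.91 ± 0.52 (SD, n = 3), which was -2.26 at the fixed length and -1.52 in CPM. Fmr1, whose product joins TOP3B and TDRD3 in a messenger ribonucleoprotein complex, had 12.48, 9.49 and 7.69 TPM, and its relative Fxr1 had 76.66, 65.29 and 61.13 TPM.

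Rmi1 (ENSMUSG00000035367, chromosome 13, 58402248 to 58411148, plus strand), the scaffold that binds TOP3A and the BLM helicase, had 8.01, 6.08 and 4.26 TPM. It exceeded Top3a in every replicate, by 0.94 ± 0.15 (SD, n = 3) on the log2 scale. Of the other members of that complex, Blm had 18.99, 13.93 and 11.77 TPM and Rmi2 had 1.32, 0.92 and 0.76 TPM. The order Blm, Rmi1, Top3a, Rmi2 was the same in all 3 replicates. Rmi1 overlaps Hnrnpk, an abundant gene on the other strand with 469.03, 350.25 and 340.95 TPM in replicates 1, 2 and 3. The libraries were directional, but the strand setting of the authors' counting is not given in the sources used here. Whether reads of the shared stretch were kept apart is therefore not known.

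The tyrosyl-DNA phosphodiesterases remove topoisomerase remnants from DNA ends, TDP1 mainly those of type I enzymes and TDP2 those of type II enzymes. Tdp2 (ENSMUSG00000035958, chromosome 13, 24831679 to 24842153, plus strand) had 13.74, 12.34 and 8.61 TPM. Tdp1 (ENSMUSG00000021177, chromosome 12, 99884517 to 99955219, plus strand) had 13.04, 9.04 and 8.08 TPM. Their ranges overlapped, and the log2 ratio of Tdp2 to Tdp1 was 0.20 ± 0.21 (SD, n = 3), no larger than its spread. It was -0.09 ± 0.18 (SD, n = 3) in CPM and -0.03 ± 0.17 (SD, n = 3) at the fixed length, so the data give no order for the pair.

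**Figure D3:**
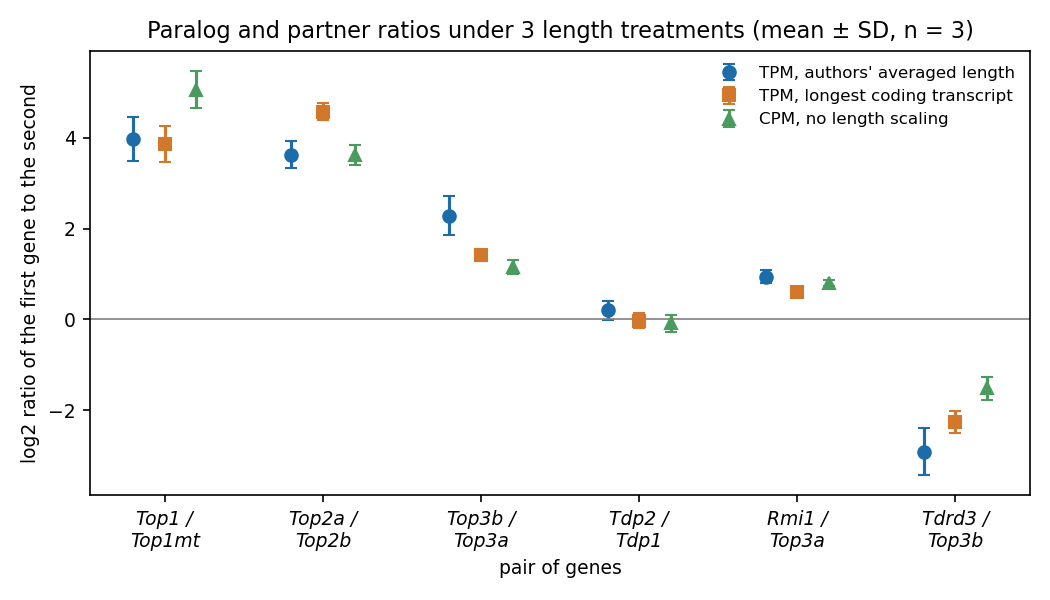
Log2 ratio (y axis) of 6 pairs of genes, as mean ± SD over 3 replicates, from TPM with the authors' averaged length, from TPM with the longest coding transcript, and from CPM. Tdp2 over Tdp1 lies at 0 within its SD or close to it, from -0.09 to 0.20; the other 5 pairs keep their sign under all 3 treatments.

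The other genes listed for clearing trapped topoisomerases and mending the ends were all expressed, and each of the 11 reached 1 TPM in every replicate. Parp1, the strand-break sensor, was highest at 31.05, 26.41 and 22.62 TPM, followed by the nuclease gene Mre11a at 21.18, 13.59 and 14.26 TPM. These 2 genes lay above Tdp1 and Tdp2 in every replicate. Aptx, which removes adenylate from stalled ligation ends, had the lowest mean of the 11, from 2.29, 3.19 and 2.59 TPM. Sprtn, a protease for DNA-protein crosslinks, had 3.84, 3.11 and 2.56 TPM, and Zfp451, a SUMO ligase that works with TDP2, had 9.46, 10.14 and 6.71 TPM. The meiotic relative Spo11 had no count in any replicate, below the floor of 3 counts.

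The order by mean TPM was Top2a, Top3b, Top1, Tdp2, Tdp1, Rmi1, Top2b, Top3a, Tdrd3 and Top1mt. Neighbours were taken to differ where the difference had 1 sign in all 3 replicates and a mean above its SD. By that rule Top2a stood apart from Top3b, by 2.23 ± 0.41 (SD, n = 3) on the log2 scale. Top3b and Top1 differed by 0.26 ± 0.29, Top1 and Tdp2 by 0.16 ± 0.16, and Tdp2 and Tdp1 by 0.20 ± 0.21 (SD, n = 3), so no order was given within these 3 pairs. Tdp1 exceeded Rmi1 by 0.72 ± 0.17, and Rmi1 exceeded Top2b by only 0.06 ± 0.05 (SD, n = 3). The steps below were 0.88 ± 0.13 from Top2b to Top3a, 0.63 ± 0.15 from Top3a to Tdrd3 and 1.32 ± 0.64 from Tdrd3 to Top1mt (SD, n = 3).

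Several of these steps turned with the length scaling, in alternatives chosen after seeing the data. Top3b lay below Top1 in every replicate in CPM, by a log2 difference of -0.98 ± 0.15, and at the fixed length, by -0.63 ± 0.15 (SD, n = 3). In CPM, Rmi1 lay below Top2b in every replicate, at -0.50 ± 0.14 (SD, n = 3), and Tdp1 and Rmi1 differed by 0.07 ± 0.17 (SD, n = 3), with no order. At the fixed length Top2b lay below Top3a, at -0.19 ± 0.07 (SD, n = 3). At the fixed length Tdp1 stayed above Rmi1, by 1.15 ± 0.16, and Rmi1 above Top2b, by 0.80 ± 0.14 (SD, n = 3). Top2a stayed first, and Top3a above Tdrd3 and Tdrd3 above Top1mt in every replicate, under both treatments. Top1 and Tdp2, without an order in TPM, had one under both treatments, with Top1 higher in every replicate. The difference was 1.35 ± 0.13 in CPM and 0.32 ± 0.13 at the fixed length (SD, n = 3).

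Replicate 3 was lower than replicate 1 in TPM for 9 of the 10 genes, Top1mt being the exception. The median difference of the 10 genes was -0.68 (log2), and that of 9675 expressed protein-coding genes was -0.62. Replicate 2 differed from replicate 1 by a median of -0.30 for the 10 genes and -0.33 for the expressed protein-coding genes. The lowest difference of replicate 3 from replicate 1 was that of Top3b, at -1.05. In CPM the median difference of replicate 3 from replicate 1 was -0.27 for the 10 genes and -0.17 for the expressed protein-coding genes, and the lowest was that of Rmi1, at -0.57.

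After scaling of counts by the trimmed mean of M values (TMM), the 10 genes were tested for variation between replicates beyond that of genes of like abundance. In edgeR's goodness-of-fit test with Benjamini-Hochberg adjustment over 12577 genes, 0 of the 10 passed an adjusted p of 0.05, and 1.84% of all genes tested did. At an unadjusted p under 0.05 the count was also 0 of 10, beside 6.96% of all genes tested. Top1 was the steadiest, with 6.85, 6.89 and 6.91 log2 CPM and an SD of 0.03, followed by Tdp1 with an SD of 0.07 and Top2a with 0.09. Top1mt had the widest spread, with 1.53, 1.65 and 2.33 log2 CPM and an SD of 0.43. The median SD was 0.13 for the 10 genes and 0.18 for all genes tested, which were not matched for abundance. Among genes of like abundance, the SDs of the 10 ranked from percentile 4.6 for Top1 to 74.1 for Top1mt. The median SD of those like genes was 0.31 for Top1mt and 0.13 to 0.18 for the other members. Not passing this test does not show that a gene was constant.

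**Figure D4:**
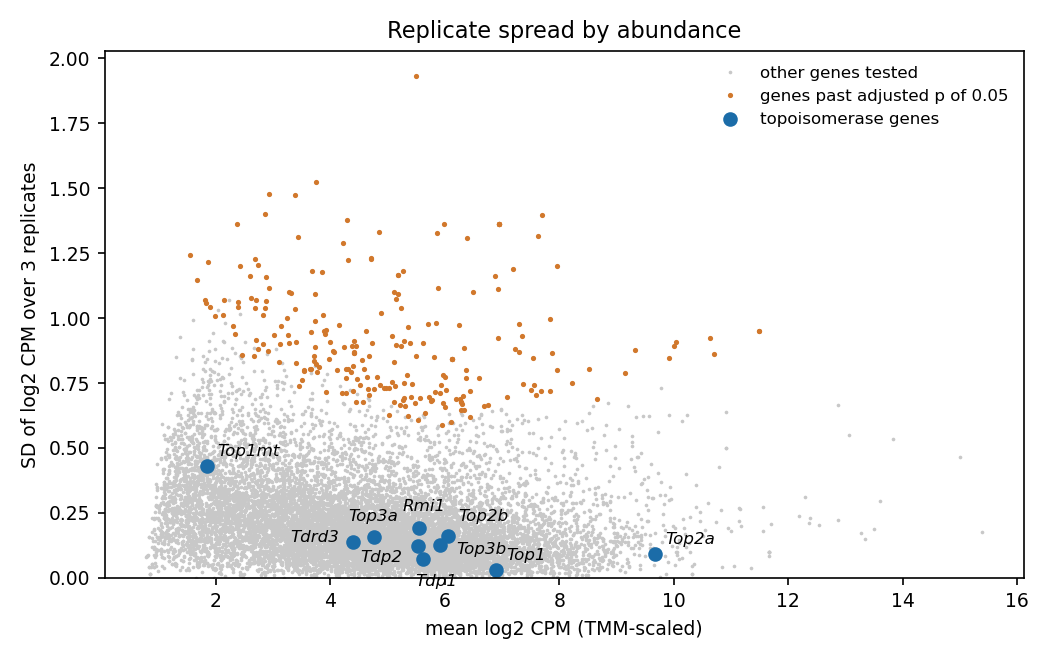
SD of log2 CPM over 3 replicates (y axis) against mean log2 CPM (x axis) for the 12577 genes tested, with the 10 topoisomerase genes in blue and the 232 genes past an adjusted p of 0.05 in orange. All 10 lie below the orange points at their abundance, from an SD of 0.03 for Top1 to 0.43 for Top1mt.

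The same test was read for the related lists. None of the 7 topoisomerase partners, 11 end repair genes, 8 condensin subunits, 12 proliferation genes or 7 mitochondrial DNA maintenance genes passed an adjusted p of 0.05 or an unadjusted p of 0.05. Their median SDs of log2 CPM, not matched for abundance, were 0.10, 0.09, 0.13, 0.12 and 0.23 in that order.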

How the data were processed

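Total RNA of E14 cells was depleted of rRNA and made into directional libraries, per the labels' protocols. STAR and RSEM are named among the tools, and mm10 as the build, per the submitters' processing notes; versions, annotation release and strand setting are not given in the sources used here. The authors deposited estimated counts (expected counts) and TPM per gene, per the file headers, and FPKM, deposited by the authors, was not used. TPM is scaled by an effective length averaged over transcripts. Length columns, other than expression, are in nt as deposited.

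Gene IDs were matched to GENCODE vM21 (GRCm38, the sequence of mm10): 55227 of 55487 matched. Counts were rounded for edgeR 4.0.16 (R 4.3.3), run with an intercept-only design, TMM, filterByExpr and trended dispersion. DESeq2 1.42.0 gave alternative size factors. The test was also run on simulated counts that had 1 dispersion for all genes. Changes were placed there only in genes with higher counts than Top1mt. That run does not show how the test performs on the 10 genes. Other steps used Python 3.11.15. A floor of 3 counts is 0.263 to 0.518 CPM. Named genes are the 10 members, fixed lists of related genes, overlapping or head-to-head genes, and the 3 protein-coding genes nearest in level to Top1 and to Top2a, the latter not reported here. Top6bl of the meiotic list had no match. Members and lists were chosen with earlier results of these data known. Alternatives changed pseudocount, unit, length, filter, normalization and replicates used.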

Additional observations from a re-analysis of the deposited data

How the results depend on the processing

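The 21 results were recomputed under 125 alternatives, 62 planned and 63 chosen after seeing the data. The number of genes with a mean TPM of at least 1, which was 9, ran from 7 (at least 5 TPM) to 10. In CPM, the log2 ratio of Tdp2 to Tdp1 reversed to -0.09, the median level became 5.64, and the log2 ratios became 5.06 for Top1 over Top1mt, 1.15 for Top3b over Top3a and -1.52 for Tdrd3 over Top3b; the Top2a share was 74.7%. With the fixed transcript length the Tdp2 to Tdp1 ratio reversed to -0.03, and the others were 4.57 for Top2a over Top2b, 1.42 for Top3b over Top3a, 0.61 for Rmi1 over Top3a and -2.26 for Tdrd3 over Top3b, with a Top2a share of 70.1%. A pseudocount of 1 gave 2.99 for Top1 over Top1mt and 0.77 for Rmi1 over Top3a. With TPM rescaled over genes of at least 100 nt effective length the median level was 4.45. These alternatives differ from the reported values by length scaling, pseudocount or denominator alone. Leaving out each replicate in turn moved none of these values beyond its spread; the Top2a share then ran from 64.1% to 67.8%. No setting made any of the 10 genes vary between replicates, while the number of all genes doing so was 232 and ran from 63 to 93 with 1 replicate left out. Depth limits Top1mt, at 20 to 33 counts. No paired analysis was possible because 1 group alone was analysed.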

Other observations

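Of the 10 genes, 4 start within 1000 bp of the start of a gene on the other strand, as do 18.4% of all protein-coding genes of the annotation. Tdp2 starts 139 bp from Acot13, an acyl-CoA thioesterase gene, which had 11.62, 8.44 and 6.63 TPM in replicates 1, 2 and 3. Top3a starts 159 bp from Smcr8, an autophagy regulator, which at 8.65, 6.76 and 6.03 TPM exceeded Top3a in every replicate. Tdp1 starts 78 bp from Efcab11, which had 0.77, 1.25 and 0.45 TPM, below Tdp1 throughout. The starts of Top3b and Vpreb1, a gene of B-cell precursors, lie 107 bp apart with overlapping gene bodies, and Vpreb1 had 10, 4 and 4 counts.

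Top2a holds a snoRNA gene on its own strand, Gm23451, with 3.3, 0.93 and 1.68 estimated counts. Top2a and Rmi1 were the 2 members whose estimated counts were not whole numbers in every replicate, with a tolerance of 0; the other 8 members had whole counts throughout, as did 83.2% of the 9683 expressed protein-coding genes. Rarb, a retinoic acid receptor gene that overlaps the end of Top2b on the other strand, had 6, 5 and 3 counts.

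The protein-coding genes nearest to Top1 in level over the 3 replicates were Wdr1, Emc4 and Kpna1, at Euclidean distances of 0.017, 0.025 and 0.042 in log2(TPM + 1) among 21973 genes compared. With 3 replicates of 1 condition this is closeness of level only.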
